A study of Homo sapiens with 12 samples.

Results

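The levels of 44 genes of DNA replication and mitosis were compared in HEK293T cells after depletion or inhibition of RNA polymerase III (Pol III). They form 2 sets of 22, chosen by name: genes of the G1/S transition and of replication, and genes of G2 and mitosis (G2/M). Read estimates of all transcripts of a gene were summed, and 43 of the 44 genes had a matched transcript, 21 in the G1/S set and all 22 in the G2/M set, among 34318 genes in the series. E2F2 was not analysed here. The 43 genes also passed the filter on low counts in both experiments.

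HEK293T is an established line from human embryonic kidney that carries adenovirus E1 genes and the SV40 large T antigen, viral proteins known to bind the retinoblastoma family. In 1 experiment the cells were transfected with an siRNA against POLR3A (group siPOLR3A), which encodes the largest subunit of Pol III, or with a control siRNA (group siControl), and were harvested after 2 days. In the other they were exposed for 4 hours to 25 µM ML60218, a small-molecule inhibitor of Pol III, or to 0.1% DMSO, its vehicle. Each of the 4 groups had 3 messenger RNA libraries. The sample titles write Hek293T for the siRNA experiment only, and those of the ML60218 experiment leave out the T. The number and sequences of the siRNAs are not given in the sources used here, and the labels do not say that replicates were separate cultures, so p-values measure the spread between these libraries, which may be technical.

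In a dividing cell, E2F factors switch on genes for licensing and copying DNA late in G1, when cyclin D and cyclin E kinases have inactivated the retinoblastoma family. The MCM2 to MCM7 helicase is loaded on origins by the origin recognition complex, CDC6 and CDT1. Later in the cycle the MYB-MuvB complex and FOXM1 activate genes for mitotic cyclins, spindle kinases and kinetochores, many through a promoter element called CHR (cell cycle genes homology region), often next to CCAAT boxes bound by NF-Y. In resting cells the DREAM complex represses both sets.

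The libraries held 37008325 to 49479476 estimated reads. POLR3A fell from 90.8 ± 3.57 (SD, n = 3) to 17.6 ± 2.65 CPM (counts scaled to library totals adjusted by TMM, a factor for composition) with the siRNA, and the groups did not overlap. With ML60218 it was also lower, at a log2 fold change of −0.38 (adjusted p 0.000229). Of 10 kidney epithelial markers, 8 averaged under 1 TPM (a transcript level scaled by length and library total), UMOD, AQP1 and PAX8 among them, while 4 of 5 general epithelial markers were above it. The 2 kidney markers that averaged above 1 TPM were PAX2 and LRP2. Of 5 fibroblast markers, 2 (COL1A1 and LUM) averaged above 1 TPM, while COL1A2, DCN and PDGFRA averaged below it. Endothelial and blood markers were all below 1 TPM. The 4 neuronal genes that HEK293 cells are known to express differed between groups. NEFL, NEFM and ENO2 were lower on average in siPOLR3A and higher in ML60218, while INA stood at 4.39 TPM in siControl and 5.30 in siPOLR3A, and at 10.2 in DMSO and 10.1 in ML60218. Their summed levels were 201 to 231 TPM in siControl against 117 to 126 in siPOLR3A, and 143 to 150.2 in DMSO against 168 to 181 in ML60218. Their part in the results below was not tested.

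Promoter windows of 300 bases, from 250 before to 50 after the start, were found in RefSeq (GRCh38.p14) for 35 of the 44 genes. None was used for MCM4, MCM5, CCND1, CCNE2, AURKA, TTK, BIRC5, TPX2 and UBE2C. An E2F motif (TTCCCGC or TTCGCGC or TTGCCGC or TTGGCGC, on either strand) was present in 15 of 24 G1/S windows (62.5%) and 6 of 25 G2/M windows (24.0%), against 13.0% of all 35116 windows. A CHR element (TTTGAA or TTCGAA on either strand) was present in 2 G1/S windows (8.33%) and 15 G2/M windows (60.0%), against 16.4% of all windows. CCAAT boxes were common to both sets, at 75.0% and 76.0% against 34.6%. A CHR element together with a CCAAT box was found in 56.0% of G2/M windows and 6.38% of all windows. Windows of 1 gene can share sequence, TTCGAA reads the same on both strands, and a match to an E2F motif can overlap a CCAAT box. The first 4 windows below show the E2F motif in G1/S genes whose mRNA fell after the siRNA. The other 4 show the CHR element in G2/M genes that moved in opposite directions (CDC20, PLK1), fell strongly with ML60218 alone (CKS2, where the element reads TTCAAA, its reverse complement) or were not called with it (CENPF). Capitals mark the motif, and where capitals run past it, an overlapping match on the other strand. The sequences are written 5′ to 3′ on the gene's strand.
CDC25A, E2F, chr3:48188442-48188471 (minus strand): gtggattccgtTTGGCGCCAActaggaaag
MCM7, E2F, chr7:100101387-100101416 (minus strand): gggggcgacgtTTCGCGCCAAtttcggttg
ORC1, E2F, chr1:52404427-52404456 (minus strand): ggccacgccgaTTGGCGCGAAgttttcttt
CDC6, E2F, chr17:40287876-40287905 (plus strand): gccattcggatTTGGCGCgagcgcggctgg
CDC20, CHR, chr1:43358904-43358933 (plus strand): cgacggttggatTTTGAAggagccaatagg
PLK1, CHR, chr16:23678848-23678877 (plus strand): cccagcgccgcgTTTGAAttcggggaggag
CKS2, CHR, chr9:89311154-89311183 (plus strand): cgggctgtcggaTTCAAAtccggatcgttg
CENPF, CHR, chr1:214603215-214603244 (plus strand): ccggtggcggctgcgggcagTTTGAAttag

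The first comparison asked how the G1/S set differed 2 days after the POLR3A siRNA. A gene was called at an adjusted p under 0.05 in edgeR's quasi-likelihood test over all genes. Of the 21 G1/S genes, 10 fell, 4 rose and 7 were not called, with a median log2 fold change of −0.064. Among all 15404 genes tested, 56.6% were called, 29.2% lower and 27.4% higher, with a median of 0.0054. With other scalings the share of higher genes among the calls moved from 48.4% to 58.7% (upper quartile) and 57.0% (total counts), and the G1/S set then had 8 genes lower and 6 higher. CPM did not overlap between groups for 16 of the 21, against 63.4% of all genes. In bulk RNA, fewer cells in a phase and less mRNA per cell cannot be told apart.

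The falls included genes that license and fire origins. CDC25A (GRCh38, ENSG00000164045, chromosome 3, 48157146 to 48188402, minus strand) encodes the phosphatase that activates CDK2. It had 182, 192 and 187 CPM in siControl and 96.1, 93.0 and 94.4 in siPOLR3A. The 3 depleted libraries lay far below the control libraries, with no overlap. The log2 fold change was −0.98 (SE 0.028 and adjusted p 2.62e-12), the largest among the 43 genes. MCM4, a helicase subunit (ENSG00000104738), stood at 565, 579 and 587 CPM against 388, 405 and 395. Its groups were far apart, and the log2 fold change was −0.54 (SE 0.024 and adjusted p 2.05e-10). MCM7, another subunit, stood at 472, 479 and 481 CPM in control and 371, 380.0 and 369.7 in depleted libraries, a log2 fold change of −0.35 (SE 0.022 and adjusted p 7.23e-09). The helicase genes did not move as 1 block. MCM5 fell by 0.22 and MCM6 by 0.088 on the log2 scale, MCM3 was not called at 0.046, and MCM2 rose, from 211, 216 and 220.3 to 237, 247 and 238 CPM with a log2 fold change of 0.16 (SE 0.026 and adjusted p 0.000119). MCM6 lost its call under both other scalings and after removal of a GC and length trend, with adjusted p up to 0.402, and MCM3 was then called higher.

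Among the loaders and initiators, ORC1 fell by 0.26, CDC6 by 0.21 and MCM10, which helps to activate the helicase, by 0.19 on the log2 scale, each with no overlap between groups. MCM10 lost its call with the isoform length offset (−0.11, adjusted p 0.0611). ORC1 and CDC6 are among the genes whose E2F motifs are printed above. E2F1 itself fell from 33.3, 36.0 and 34.4 to 29.2, 27.5 and 27.4 CPM with a log2 fold change of −0.30 (SE 0.047 and adjusted p 7.02e-05). ORC6 (−0.018), CDC45 (−0.034) and CDT1 (0.069) were not called. Of the enzymes that make deoxynucleotides, RRM1 (−0.031) and TYMS (0.010) were not called. PCNA, the sliding clamp of the replicative polymerases, fell by 0.093 (adjusted p 0.0131). That call was lost without siControl replicate 3 (adjusted p 0.0672), without siPOLR3A replicate 3 (0.0575) and under both other scalings.

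The 3 cyclins of the set rose. CCNE1, cyclin E1 (ENSG00000105173, chromosome 19, 29811898 to 29824308, plus strand), stood at 21.5, 23.4 and 21.2 CPM in siControl and 37.2, 37.3 and 36.5 in siPOLR3A. The 3 depleted libraries were tightly grouped above all controls, and the log2 fold change was 0.75 (SE 0.048 and adjusted p 1.12e-08). CCNE2, the second cyclin E gene (ENSG00000175305), stood at 20.8, 21.2 and 20.7 against 27.7, 30.6 and 26.6 CPM, a log2 fold change of 0.44 (SE 0.056 and adjusted p 1.37e-05). CCND1, cyclin D1 (ENSG00000110092, chromosome 11, 69641087 to 69654474, plus strand), stood at 176, 184 and 180.2 against 242, 247 and 241 CPM, a log2 fold change of 0.44 (SE 0.024 and adjusted p 2.73e-09). The cyclins and MCM2 thus made up the 4 G1/S genes called higher. CCNE2 and CCND1 each overlap annotated genes on the opposite strand (INTS8 and NDUFAF6; LTO1). The library kit keeps strand, but whether the counting used it is not given in the sources used here.

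RRM2, the small subunit of ribonucleotide reductase, could not be read from its matched transcripts alone. It stood at 134, 221 and 101 CPM in siControl and 169.9, 181 and 83.1 in siPOLR3A, a log2 fold change of −0.064 (SE 0.467 and adjusted p 0.922), with large spread inside both groups. A transcript listed between those of RRM2 but without a match held 38.8% of the reads of the locus and was high in the libraries where the matched ones were low. In siControl the matched transcripts summed to 69.9, 103 and 61.8 TPM and the unmatched one stood at 72.0, 35.6 and 90.1. Together they gave 142, 138 and 152 TPM in siControl and 118, 119 and 120.3 in siPOLR3A, with no overlap. With such neighbours included, the log2 fold change was −0.24 (adjusted p 4.47e-08).

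In the G2/M set, 7 of 22 genes rose, 7 fell and 8 were not called after the siRNA (median log2 fold change 0.0048), where 27.4% of all genes tested rose and 29.2% fell. BIRC5, survivin of the chromosomal passenger complex (ENSG00000089685, chromosome 17, 78214186 to 78225636, plus strand), stood at 125, 125 and 127 CPM in siControl and 158, 158 and 157 in siPOLR3A. Both groups were tight and far apart, at a log2 fold change of 0.33 (SE 0.024 and adjusted p 4.46e-08). CDC20, the activator of the anaphase-promoting complex (ENSG00000117399, chromosome 1, 43358955 to 43363203, plus strand), stood at 90.2, 86.2 and 91.9 against 112, 111 and 109 CPM, with a log2 fold change of 0.31 (SE 0.030 and adjusted p 8.43e-07). TOP2A, topoisomerase II alpha (ENSG00000131747, chromosome 17, 40388516 to 40417950, minus strand), was the most abundant member by CPM, at 868, 849 and 863 against 1029, 1049.6 and 1011, a log2 fold change of 0.26 (SE 0.022 and adjusted p 2.16e-07). UBE2C, a ubiquitin-conjugating enzyme of the same complex as CDC20, rose by 0.26, the passenger kinase AURKB by 0.21 and the mitotic cyclin CCNB1 by 0.19 on the log2 scale, all without overlap. PLK1, a kinase of mitotic entry, was called at 0.074 (adjusted p 0.0329). It lost that call without siControl replicates 1 (0.0680) or 2 (0.0620) and siPOLR3A replicates 1 (0.140) or 3 (0.0993).

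Of the 7 that fell, MKI67, the coat protein of mitotic chromosomes behind the Ki-67 stain (ENSG00000148773, chromosome 10, 128096659 to 128126385, minus strand), stood at 545, 497 and 501 CPM against 409, 404 and 438. The depleted libraries were all lower, with a log2 fold change of −0.30 (SE 0.045 and adjusted p 0.000722). The phosphatase gene CDC25C fell by 0.22 and AURKA, the centrosomal kinase, by 0.22 on the log2 scale. AURKA stood at 126, 128 and 129 CPM in siControl and 110.2, 109.8 and 109 in siPOLR3A. CCNA2, cyclin A, fell by 0.18, CENPF, a kinetochore protein, by 0.17 and CDK1, the mitotic kinase, by 0.13. CENPF lost its call under upper quartile and total count scaling (adjusted p 0.0737 and 0.0537), and CDK1 after removal of the GC and length trend (−0.036, adjusted p 0.267). TPX2, which activates AURKA at the spindle, was called at −0.061 (adjusted p 0.0266). That call was lost without siControl replicate 3 (0.0667) or any siPOLR3A replicate (0.0660, 0.0603 and 0.0715). Under upper quartile or total count scaling 9 G2/M genes were higher and 5 lower. The checkpoint genes BUB1 (0.034), BUB1B (−0.026) and TTK (0.037), with CCNB2 (−0.056), CCNF (−0.0054), CDC25B (0.015), CENPE (−0.052) and CKS2 (0.024), were not called.

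**Figure D1:**
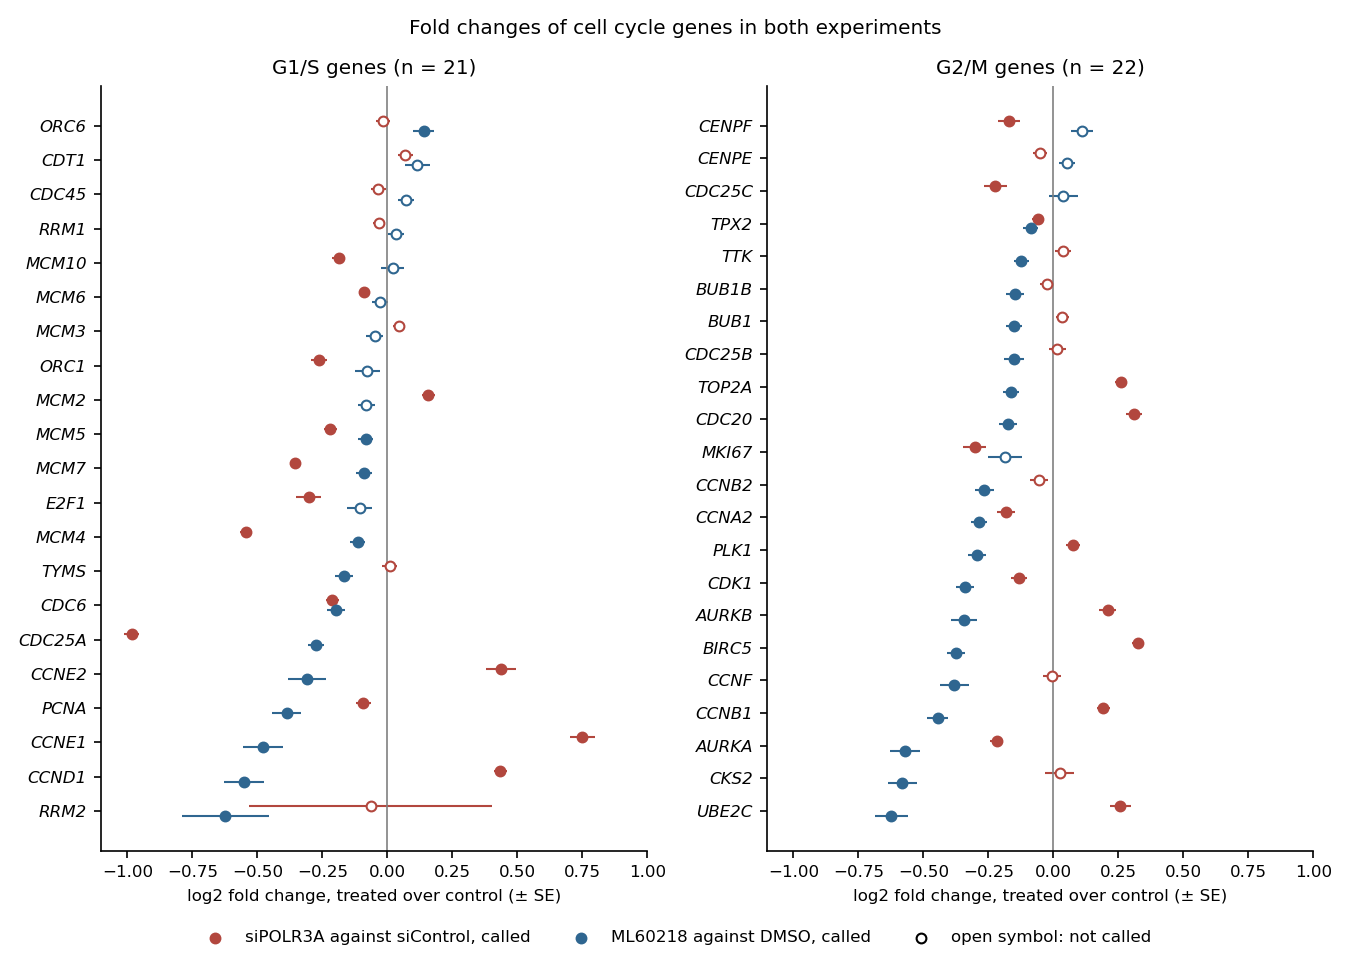
Log2 fold change (x axis, points, with SE bars) of each measured gene after the POLR3A siRNA (red) and with ML60218 (blue), in the G1/S set (left) and the G2/M set (right), ordered by the ML60218 value; open symbols were not called. The blue points of the G2/M set lie at or below 0.11, with 18 called lower, while the red points lie on both sides of 0, from −0.30 to 0.33.

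The second comparison asked how the same genes differed after 4 hours of ML60218. Of the 22 G2/M genes, 18 fell and 0 rose, and 4 were not called (CDC25C, MKI67, CENPE and CENPF). The median log2 fold change was −0.23, and CPM did not overlap for 18, against 51.8% of all genes. Among all 15461 genes tested, 39.0% were called, 20.9% lower and 18.1% higher, with a median of 0.0054. The share of higher genes among the calls was 46.4%, against 58.6% and 67.0% under upper quartile and total count scaling, and the numbers of G2/M genes lower were then 17 and 12, with 2 called higher in each. By DESeq2, 0 of the 22 were called higher and 19 lower, and at an unadjusted p under 0.05, which 47.6% of all genes met, 1 was higher and 19 were lower. ML60218 replicate 3 held the lowest CPM of its group in 16 of the 18 genes that fell. Without it 18 were still called lower, and the median was −0.21.

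UBE2C (ENSG00000175063, chromosome 20, 45812576 to 45816957, plus strand) fell most. It stood at 92.8, 90.9 and 91.5 CPM in DMSO and 63.4, 62.6 and 52.8 in ML60218, and the groups were well apart. The log2 fold change was −0.62 (SE 0.064 and adjusted p 0.000266). CKS2, a small subunit of cyclin-dependent kinases (ENSG00000123975, chromosome 9, 89311198 to 89316703, plus strand), stood at 120.2, 123 and 119 against 87.5, 81.0 and 73.9 CPM, a log2 fold change of −0.58 (SE 0.056 and adjusted p 0.000191). AURKA (ENSG00000087586, chromosome 20, 56369389 to 56392337, minus strand) stood at 135, 136 and 138 against 99.1, 93.6 and 83.2 CPM, a log2 fold change of −0.57 (SE 0.057 and adjusted p 0.000239). In all 3 genes, replicate 3 was the lowest and every treated library was below every vehicle library. CCNB1 (ENSG00000134057, chromosome 5, 69167010 to 69178245, plus strand) fell from 265, 273 and 273 to 210.1, 198 and 188 CPM, a log2 fold change of −0.45 (SE 0.041 and adjusted p 0.000145). The other cyclins fell less, CCNF by 0.38, CCNA2 by 0.29 and CCNB2 by 0.27 on the log2 scale.

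Among the kinases and their partners, BIRC5 fell by 0.37, AURKB by 0.34, CDK1 by 0.34 and PLK1 by 0.29 on the log2 scale, each without overlap. Smaller falls, of 0.17 to 0.12, were called for CDC20, TOP2A, CDC25B, BUB1, BUB1B and TTK. All of these but TOP2A lost the call under total counts, with adjusted p from 0.0601 (CDC20) to 0.207 (TTK). BUB1B (−0.051, adjusted p 0.438) and TTK (adjusted p 0.0579) also lost it with the isoform length offset, and CDC20 and CDC25B after removal of the GC and length trend (adjusted p 0.0614 and 0.0676). TPX2 was called at −0.087 (adjusted p 0.0330). It lost the call without each DMSO replicate and without ML60218 replicates 1 and 2, with adjusted p from 0.0515 to 0.121. MKI67 stood at 409, 401 and 377 CPM against 382, 317 and 343, a log2 fold change of −0.19 (SE 0.067 and adjusted p 0.0625), and its groups overlapped. It was called lower by DESeq2 and, without ML60218 replicate 1, at −0.26 (adjusted p 0.00221). CENPF was at 0.11 (SE 0.042 and adjusted p 0.0658), CENPE at 0.052 (SE 0.032 and adjusted p 0.231) and CDC25C at 0.038 (SE 0.054 and adjusted p 0.615). Those 3 had values above 0, and CENPF and CENPE were called higher under both other scalings, CENPF also without ML60218 replicate 2 (adjusted p 0.0374).

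Of the G2/M genes with a promoter entry, the CHR element was present in 13, of which 10 fell with ML60218, and absent from the windows of 4, of which 3 fell. CENPF, MKI67 and CDC25C hold the element and were not called. After the siRNA the 13 genes with the element were divided into 3 higher, 4 lower and 6 not called. In the G1/S set, 13 measured genes held an E2F motif, and 7 of these fell and 1 rose after the siRNA, while with ML60218 6 fell and 0 rose. Of the 4 genes whose windows lacked it, 1 rose and 1 fell in each experiment. Among all genes tested, 29.2% fell and 27.4% rose after the siRNA, and 20.9% fell and 18.1% rose with ML60218. These counts describe letters in fixed windows and were not tested.

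In the G1/S set, 11 of 21 genes fell with ML60218, 1 rose and 9 were not called, with a median of −0.091. Here 20.9% of all genes tested fell. The count of falls was 7 with total counts and 7 without DMSO replicate 1 or DMSO replicate 2. In the main fit the largest falls were those of RRM2, described below, and CCND1. With the unmatched neighbouring transcript included, RRM2 was at −0.34, a smaller fall than that of CCND1. CCND1 stood at 104, 107 and 103 CPM in DMSO and 80.3, 70.4 and 63.5 in ML60218, a log2 fold change of −0.55 (SE 0.077 and adjusted p 0.00158). CCNE1 stood at 27.3, 26.4 and 28.3 against 22.1, 19.1 and 17.8 CPM, a log2 fold change of −0.48 (SE 0.077 and adjusted p 0.00132). CCNE2 fell from 24.9, 27.1 and 25.9 to 21.5, 22.7 and 18.7 CPM, a log2 fold change of −0.31 (SE 0.074 and adjusted p 0.00872). All 3 cyclins were lowest in replicate 3, and none of their groups overlapped. PCNA (ENSG00000132646, chromosome 20, 5114953 to 5126626, minus strand) stood at 241, 239.8 and 239.6 CPM against 194, 191 and 165, a log2 fold change of −0.39 (SE 0.056 and adjusted p 0.00125). CDC25A fell from 180.2, 185 and 179 to 148, 149 and 153 CPM, with a log2 fold change of −0.27 (SE 0.031 and adjusted p 0.000266).

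CDC6 fell by 0.20 and TYMS, thymidylate synthase, by 0.17 on the log2 scale with ML60218. TYMS overlaps ENOSF1 and TYMSOS on the opposite strand. MCM4 was at −0.11 (adjusted p 0.0134), but its p was 0.0692 without DMSO replicate 1 and 0.0681 without DMSO replicate 2. Its call was also lost under upper quartile and total count scaling and with an isoform length offset (adjusted p up to 0.261, at a log2 fold change of −0.044). MCM7 was at −0.091 (adjusted p 0.0405) and lost its call without each library but ML60218 replicate 2, with adjusted p from 0.0521 to 0.131. MCM5 was at −0.082 (adjusted p 0.0458) and lost it without any 1 of the 6 libraries, with adjusted p from 0.0571 to 0.151. MCM2 (−0.080), MCM3 (−0.049), MCM6 (−0.029), MCM10 (0.020), ORC1 (−0.077), E2F1 (−0.11), RRM1 (0.034), CDC45 (0.071) and CDT1 (0.12) were not called. With total counts, CDC45, CDT1 and RRM1 were called higher.

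ORC6, the smallest origin recognition subunit (ENSG00000091651, chromosome 16, 46689643 to 46698394, plus strand), was the 1 G1/S gene called higher with ML60218, from 107, 113 and 114 to 127, 119 and 121 CPM. The log2 fold change was 0.14 (SE 0.039 and adjusted p 0.0185), with an adjusted p of 0.0877 without DMSO replicate 1 and 0.0523 without DMSO replicate 2. Its most abundant transcript was annotated as a retained intron. Transcripts not annotated as protein-coding took 61.9% ± 0.68 of its TPM in DMSO and 73.2% ± 2.9 in ML60218, against 73.5% ± 1.7 in siControl and 72.4% ± 1.5 in siPOLR3A. Over the 43 genes that share had a median of 5.79% in DMSO and 6.31% in ML60218. RRM2 was called at −0.62 (SE 0.166 and adjusted p 0.0426), from 282, 268 and 209.6 to 138, 176 and 179 CPM. The call was lost without DMSO replicates 1 or 2 and without each ML60218 replicate, with adjusted p from 0.0771 to 0.115. Matched and unmatched transcripts together gave 163, 158 and 152 TPM in DMSO and 135, 142 and 136 in ML60218, with no overlap, and the fit with neighbours included gave −0.34 (adjusted p 9.49e-05).

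**Figure D2:**
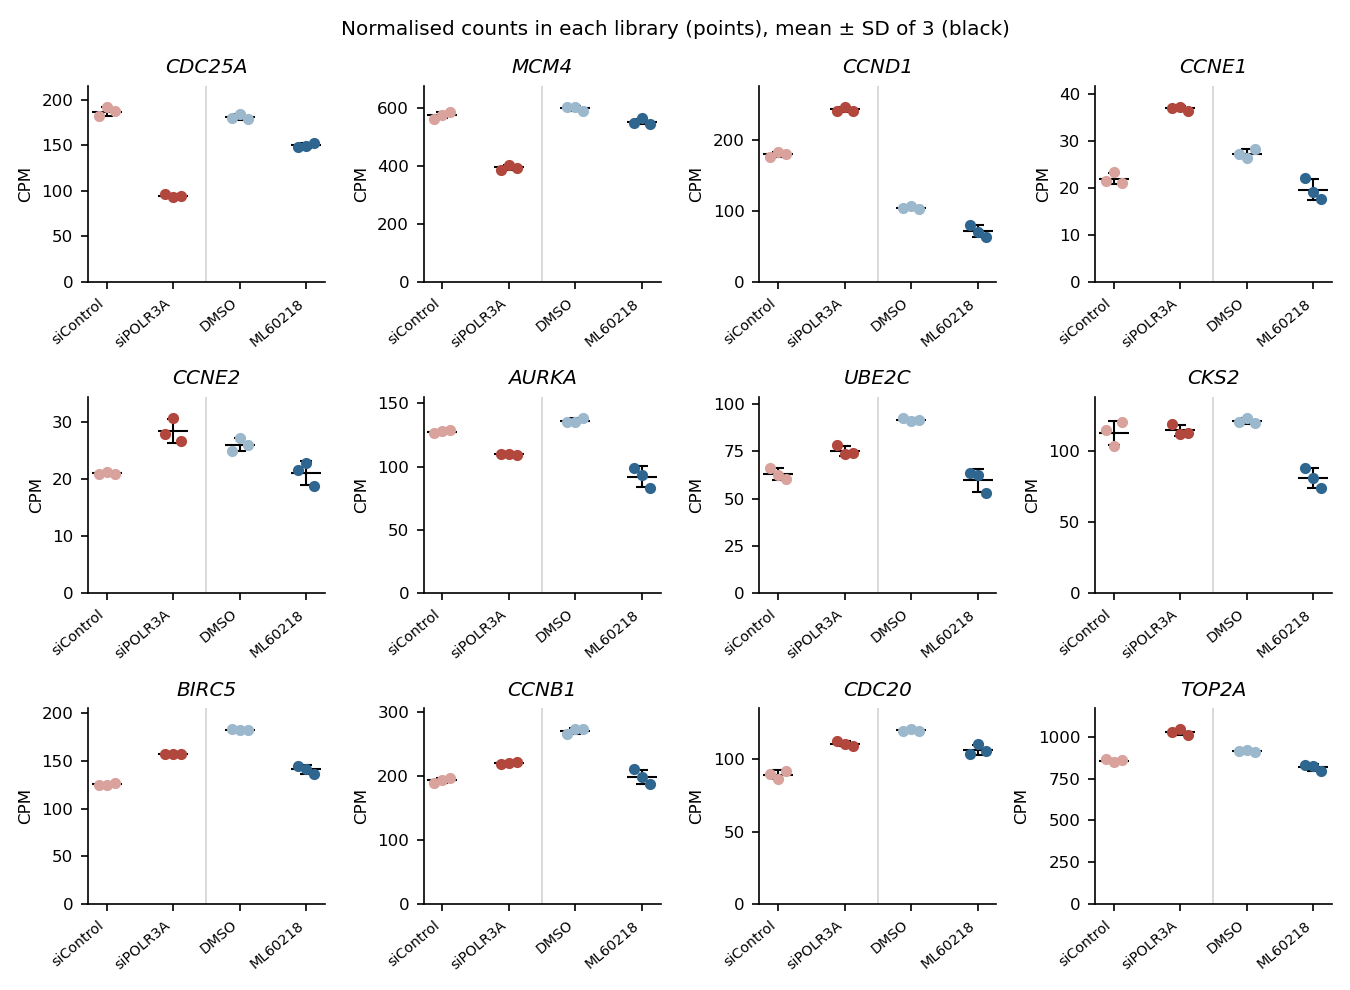
CPM (y axis, from 0) of 12 genes in each library of the 4 groups, with the mean and SD of 3 libraries in black and a grey line between the experiments. CDC25A and MCM4 are lower after both treatments, the cyclins CCND1, CCNE1 and CCNE2 are higher in siPOLR3A and lower in ML60218, and CKS2 overlaps between siControl and siPOLR3A but not between DMSO and ML60218.

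Next, the log2 fold change with ML60218 was subtracted from that after the siRNA, in 1 fit of all 12 libraries. Agent, duration and control differ together here. In the G2/M set, 16 of 22 genes had a positive difference and 2 a negative one (CDC25C and CENPF), with a median of 0.21. Among all 15780 genes tested 50.9% were called, 24.5% positive and 26.4% negative, with a median of −0.017. The largest differences were 0.89 for UBE2C (SE 0.084, adjusted p 8.77e-07), 0.71 for BIRC5 (SE 0.038, adjusted p 6.35e-10) and 0.64 for CCNB1 (SE 0.048, adjusted p 2.62e-08). CKS2 followed at 0.61, AURKB at 0.56, CDC20 at 0.49 and TOP2A at 0.43. AURKA differed by 0.36 although it fell in both, since its fall was larger with ML60218. CDC25C was at −0.26 and CENPF at −0.27, and CENPF lost its call after removal of the GC and length trend (adjusted p 0.077).

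In the G1/S set the difference was positive for 7 genes, negative for 9 and not called for 5, with a median of −0.054. As shares these were 33.3% positive and 42.9% negative, against 24.5% and 26.4% of all genes tested. The cyclins had the largest positive values, 1.23 for CCNE1 (SE 0.093, adjusted p 2.63e-08), 0.99 for CCND1 (SE 0.084, adjusted p 8.68e-07) and 0.75 for CCNE2. PCNA (0.30), MCM2 (0.24), TYMS (0.18) and MCM3 (0.10) were also positive. On the negative side were CDC25A at −0.70 (SE 0.039, adjusted p 9.27e-10), MCM4 at −0.42 and MCM7 at −0.26, then MCM10, E2F1, ORC1, ORC6, MCM5 and CDC45 between −0.20 and −0.10. MCM3 lost its call in 10 of the 12 fits that left out 1 library (adjusted p 0.0562 to 0.125), all but those without DMSO replicate 1 or ML60218 replicate 2. CDC45 lost it in 9 (0.0523 to 0.122), all but those without siPOLR3A replicate 3 or ML60218 replicates 1 or 3. E2F1 lost it in 5 (0.0505 to 0.0779), those without replicate 2 of each group or siPOLR3A replicate 3. After removal of the GC and length trend the median was 0.058, and MCM10 and ORC6 lost their calls (adjusted p 0.142 and 0.293). MCM5 and ORC1 lost theirs with the isoform length offset (adjusted p 0.125 and 0.0551). CDC6 fell in both experiments, and its difference was not called, at −0.0073 (SE 0.042).

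Calls in both experiments sorted the genes further. A rise after the siRNA with a fall under ML60218 was called for 10 of the 43, the cyclins CCND1, CCNE1 and CCNE2 with CCNB1, CDC20, PLK1, AURKB, TOP2A, BIRC5 and UBE2C. That pattern held for 7.49% of the 15165 genes tested in both. For PLK1 the call after the siRNA was lost under 9 of 16 alternatives. A fall in both was also called for 10 (MCM4, MCM5, MCM7, CDC6, PCNA, CDC25A, CCNA2, CDK1, AURKA and TPX2), against 7.52% of all genes. It was called for 5 with total counts or upper quartile scaling and 6 after removal of the GC and length trend. In the main fits, neither set had a gene called higher in both, or lower after the siRNA and higher with ML60218, against 4.75% and 6.43% of all genes. That did not hold under all alternatives. CDT1 was called higher in both experiments under upper quartile scaling, total counts and the isoform length offset. With the GC and length trend removed, CDT1 was called lower after the siRNA (−0.14) and higher with ML60218 (0.22).

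**Figure D3:**
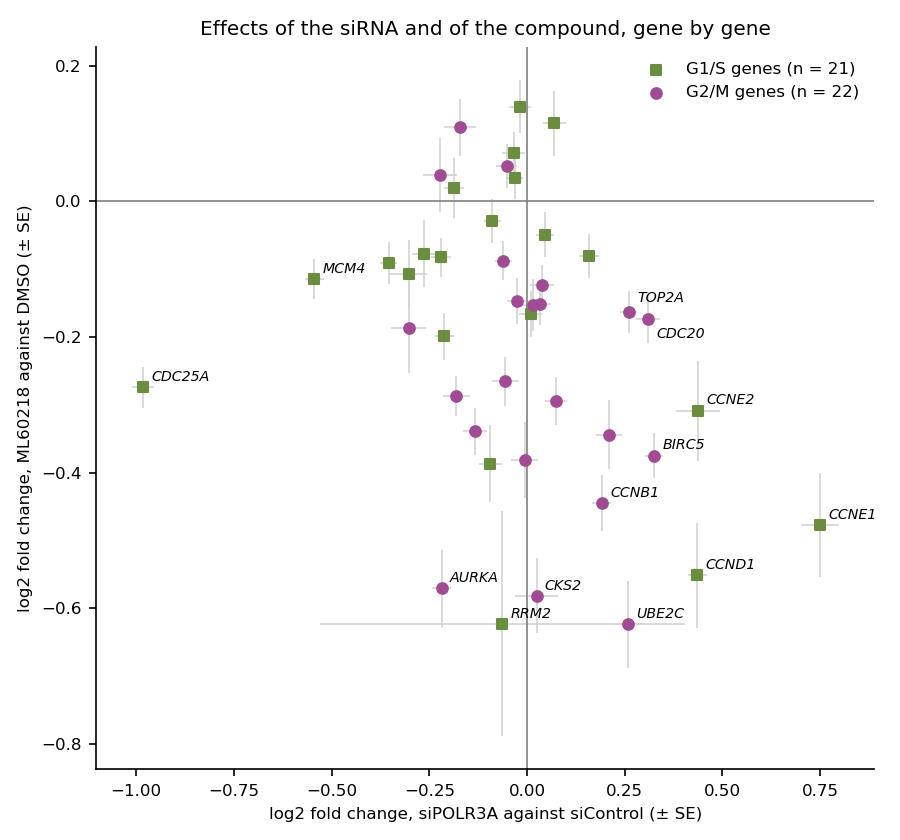
Each gene's log2 fold change after the POLR3A siRNA (x axis) against that with ML60218 (y axis), with SE bars, for 21 G1/S genes (green squares) and 22 G2/M genes (purple circles). Most points lie below 0 on the y axis and on both sides of 0 on the x axis, with CDC25A alone at the far left and CCNE1 at the far right.

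The mean log2 CPM of a set gives 1 level per library. It is a description, with no test, since the genes were chosen with results known. After the siRNA the G1/S level was 7.01, 7.07 and 7.02 in siControl and 6.98, 6.99 and 6.92 in siPOLR3A, a difference of −0.071 with no overlap. The G2/M level was 7.15, 7.13 and 7.17 against 7.16, 7.17 and 7.17, and these overlapped. Both levels are given under TMM alone. For the siRNA, the median log2 fold change of all genes was 0.0054 under TMM. It was 0.065 when libraries were scaled by upper quartile and 0.055 when scaled by their totals. The size of the G1/S fall therefore depends on the scaling, and its lack of overlap was read under TMM only. The G1/S median log2 fold change was smaller in size under both other scalings, as given in the closing section. The G2/M level minus the G1/S level was 0.14, 0.10 and 0.14 in siControl and 0.21, 0.20 and 0.22 in siPOLR3A without RRM2, which was left out after its spread had been seen. All depleted libraries were above all controls on that measure, with or without RRM2.

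With ML60218 both sets were lower. The G1/S level was 7.18, 7.19 and 7.16 in DMSO and 7.01, 7.06 and 7.01 in ML60218. The G2/M level was 7.30, 7.30 and 7.30 in DMSO and 7.09, 7.06 and 7.0 in ML60218. The G1/S difference was −0.15 (−0.13 without RRM2) and the G2/M difference −0.25, neither with overlap. G2/M minus G1/S without RRM2 was 0.17, 0.15 and 0.16 in DMSO and 0.083, 0.020 and 0.023 in ML60218. With RRM2 included, G2/M minus G1/S changed by 0.086 after the siRNA and by −0.10 with ML60218. After the siRNA the G1/S level was lower under TMM (−0.071), while the G2/M level differed by 0.014 and its groups overlapped. With ML60218 both levels were lower, the G2/M level more so. Replicate 3 had the lowest G2/M level of the ML60218 group, and replicate 1 the highest, still below every DMSO library.

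**Figure D4:**
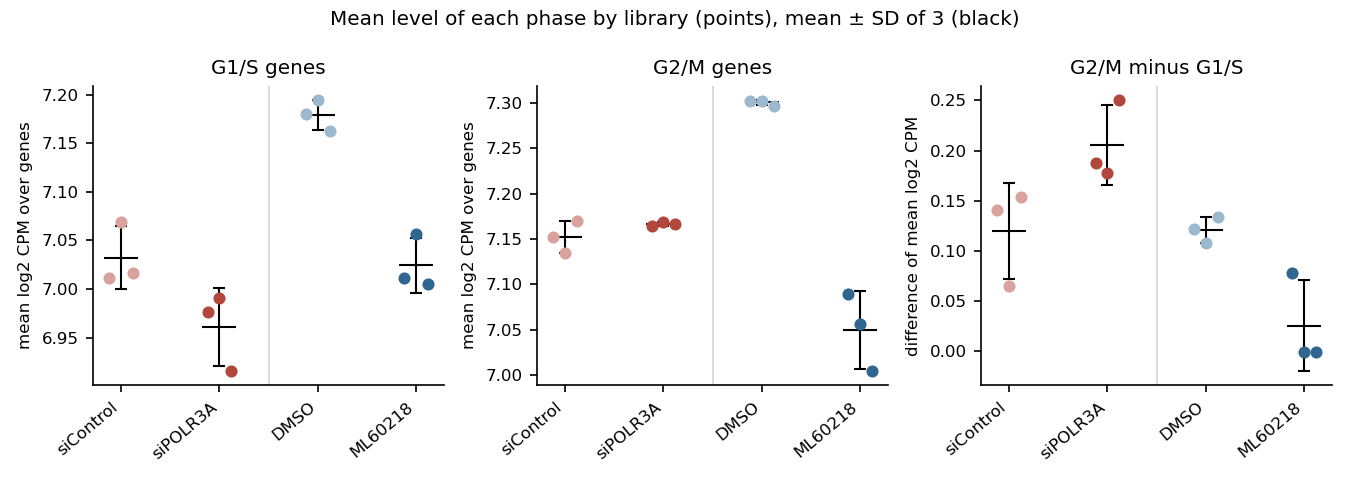
Mean log2 CPM (y axis) of the 21 G1/S genes (left), of the 22 G2/M genes (middle) and the G2/M mean minus the G1/S mean (right), RRM2 included, for each library, with the group mean and SD in black; the y axes do not start at 0. The G2/M points of siControl and siPOLR3A overlap, and those of ML60218 lie between 7.0 and 7.09, all below DMSO.

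Levels of different genes were compared per length, as TPM. In siControl they ran from 13.7 ± 0.613 TPM for CCNE2 (mean and SD, n = 3) to 379 ± 39.4 for CKS2. MCM7 (259 ± 5.80) and MCM4 (221 ± 2.39) were the highest G1/S genes there, and CCNE1 (19.2 ± 0.234) and E2F1 (19.2 ± 0.122) were just above CCNE2. In siPOLR3A, MCM7 stood at 205 ± 2.17 TPM and MCM4 at 167 ± 3.08. In ML60218 the level of CKS2 was 302 ± 6.17 TPM against 412 ± 25.7 in DMSO, and it remained the highest. TPM carries the total count scaling and the length of each transcript, so small CPM differences can take another sign. BUB1B stood at 77.7 ± 2.81 TPM in DMSO and 82.4 ± 2.61 in ML60218, while its CPM fell. MCM4, MCM5, MCM7, TTK and TPX2, also called lower with ML60218, likewise had a higher mean TPM there than in DMSO. MCM7 stood at 258 ± 7.02 TPM in DMSO and 265 ± 13.1 in ML60218, and TPX2 at 79.9 ± 2.21 and 82.5 ± 5.48. The log2 fold change of BUB1B stayed negative under total counts alone (−0.076) and with the isoform length offset alone (−0.051). What turned the sign in TPM was not tested. In the order of levels, the ranges of neighbouring genes overlapped in 23 to 29 of 42 pairs per group.

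Beyond the named sets, 6 lists of other cell cycle genes were read from the same fits. Of 56 other mitotic kinase, spindle and kinetochore genes, 33 fell and 1 rose with ML60218, with a median of −0.13, against 20.9% lower among all genes. CENPA, the centromeric histone, fell from 27.7, 28.2 and 28.3 to 20.1, 18.0 and 15.9 CPM, a log2 fold change of −0.65 (SE 0.077 and adjusted p 0.000347). GTSE1, a spindle-associated protein, was at −0.50 (SE 0.049 and adjusted p 0.000178). CENPW was at −0.54, a call lost without any DMSO replicate or ML60218 replicate 2 (adjusted p up to 0.0673). After the siRNA the same list had 12 genes higher, 23 lower and 21 not called (median −0.015). As shares these were 21.4% higher and 41.1% lower, against 27.4% and 29.2% of all genes tested after the siRNA. CENPU (−0.50), CDCA2 (−0.50) and PRC1 (−0.45), a bundler of spindle microtubules, fell most.

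Of 43 other replisome and origin genes, 22 fell and 13 rose after the siRNA (median −0.11), and 13 fell and 9 rose with ML60218 (median −0.024). As shares these were 51.2% lower and 30.2% higher after the siRNA, against 29.2% and 27.4% of all genes tested, and 30.2% lower and 20.9% higher with ML60218, against 20.9% and 18.1%. CHAF1B, a subunit of the histone chaperone CAF-1, fell most after the siRNA, from 72.2, 74.8 and 75.0 to 39.2, 39.8 and 42.3 CPM, a log2 fold change of −0.87 (SE 0.036 and adjusted p 1.06e-10). ORC2 (−0.74) and POLA1 (−0.55), the catalytic subunit of DNA polymerase alpha, followed. With ML60218 the flap endonuclease FEN1 (−0.56) and GINS1 (−0.49), part of the active helicase, fell. Primase PRIM1 rose by 0.40, a call lost without DMSO replicates 1 or 2 or ML60218 replicate 3 (adjusted p up to 0.0919). Among 19 genes of nucleotide supply and other S-phase work, 9 fell and 5 rose after the siRNA, and 5 fell and 5 rose with ML60218. Those were 47.4% lower and 26.3% higher after the siRNA and 26.3% lower and 26.3% higher with ML60218. BRCA1 was at −0.97 (SE 0.025 and adjusted p 1.02e-12) after the siRNA and at 0.34 (SE 0.049 and adjusted p 0.000823) with ML60218.

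The anaphase-promoting complex and SCF list had 12 of 23 genes higher and 9 lower after the siRNA, and 1 higher and 11 lower with ML60218. All genes had 27.4% higher and 29.2% lower after the siRNA, and 18.1% and 20.9% with ML60218. UBE2S, the partner of UBE2C in building ubiquitin chains, fell after the siRNA (−0.46), where UBE2C rose. SKP2, which recruits substrates to SCF, was at −0.58 (SE 0.093 and adjusted p 0.00407) and ANAPC2 at 0.51. With ML60218, CDC26 (−0.72), RBX1 (−0.52) and FZR1 (−0.44), the second activator of the complex, fell. Of 17 upstream cyclins and kinases, 8 fell and 3 rose after the siRNA and 3 fell and 3 rose with ML60218, 47.1% lower and 17.6% higher in the first and 17.6% lower and 17.6% higher in the second. CCND2, cyclin D2, fell from 357, 345 and 341 to 172, 167 and 162 CPM after the siRNA with a log2 fold change of −1.06 (SE 0.028 and adjusted p 1.06e-12), while CCND1 rose.

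Among 33 inhibitors and transcriptional regulators of the cycle, 14 fell and 10 rose after the siRNA, and 8 fell and 6 rose with ML60218. The shares were 42.4% lower and 30.3% higher after the siRNA, against 29.2% and 27.4% of all genes, and 24.2% lower and 18.2% higher with ML60218, against 20.9% and 18.1%. FOXM1, the activator of G2/M genes, stood at 138, 139.7 and 142 CPM in siControl and 87.9, 86.9 and 87.7 in siPOLR3A, a log2 fold change of −0.68 (SE 0.026 and adjusted p 4.53e-11). All depleted libraries were lower. With ML60218 it stood at 171, 177 and 178 against 161, 149.8 and 146 CPM, a log2 fold change of −0.21 (SE 0.041 and adjusted p 0.00351), and the difference between the treatments was −0.47 (SE 0.047 and adjusted p 7.44e-07). MYBL2, the MYB protein of the MuvB complex, was at −0.067 (SE 0.026 and adjusted p 0.0413) after the siRNA, a call lost under 11 of 16 alternatives, among them the fits without siControl replicates 2 or 3 or any siPOLR3A replicate (adjusted p up to 0.824), and at −0.062 (SE 0.032 and adjusted p 0.152) with ML60218. The pocket protein RBL2, a DREAM subunit, fell after the siRNA by 1.26 and the inhibitor CDKN2C by 0.96 on the log2 scale. CDKN1A, the p21 inhibitor, rose after the siRNA from 24.5, 24.8 and 25.7 to 35.8, 33.6 and 35.0 CPM, a log2 fold change of 0.48 (SE 0.045 and adjusted p 5.78e-07). With ML60218 it was at −0.13 (SE 0.043 and adjusted p 0.0418), and that call was lost under 11 alternatives, among them the fits without any DMSO replicate or ML60218 replicates 2 or 3 (adjusted p up to 0.374). GADD45A, a stress-induced growth arrest gene, rose with ML60218 from 15.3, 14.7 and 15.8 to 22.5, 26.6 and 28.4 CPM, a log2 fold change of 0.76 (SE 0.083 and adjusted p 0.000242). NFYA, the DNA-binding subunit for CCAAT boxes, fell with ML60218 by 0.45.

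**Figure D5:**
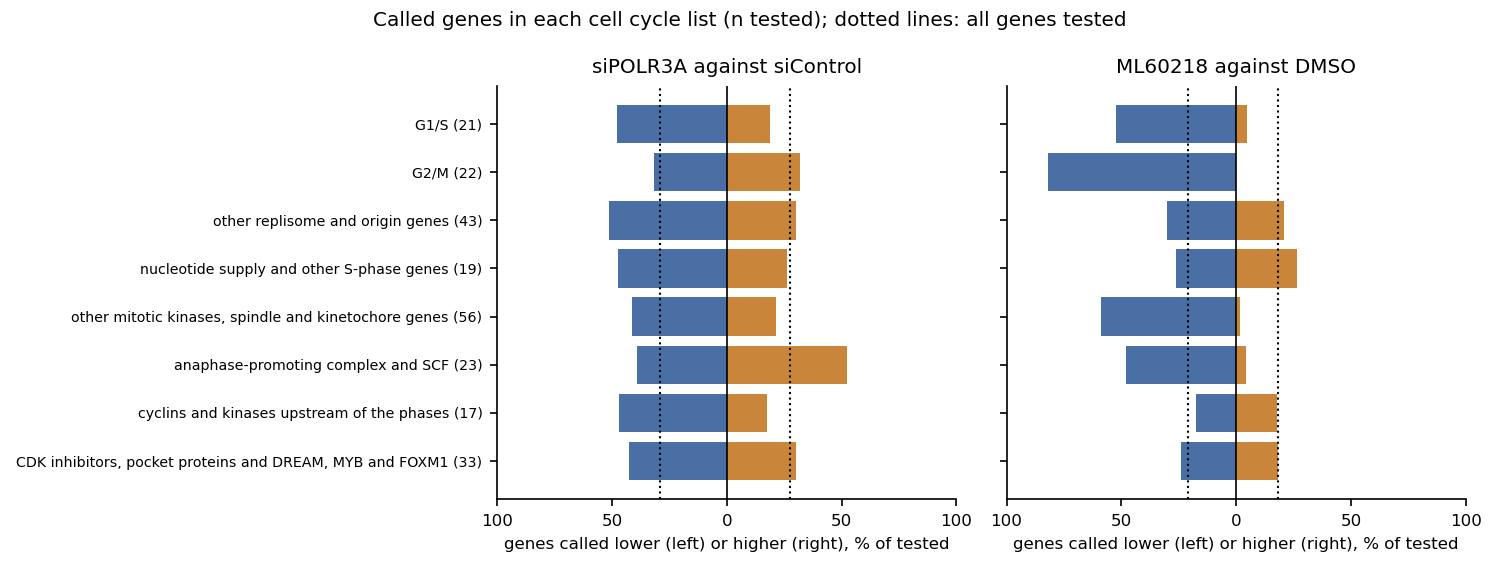
Share of tested genes (x axis, percent) called lower (blue, left) or higher (orange, right) in the G1/S and G2/M sets and in 6 other cell cycle lists, after the POLR3A siRNA and with ML60218; dotted lines give the shares among all genes tested and numbers in brackets the genes tested. With ML60218 the G2/M set has 81.8% lower and the other mitotic list 58.9%, against 20.9% of all genes.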

How the data were processed

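Messenger RNA was sequenced from 12 HEK293T libraries in 4 groups of 3. The table the authors deposited holds estimated counts and TPM for 194142 transcripts in each library, in columns that the program salmon writes, per the file headers; its version, settings and any filter are not given in the sources used here. Trim Galore, DESeq2 and build hg38 are named in the submitters' processing notes. Transcripts were matched to GENCODE 29 genes by identifier without version (158359, 81.6%), and unmatched transcripts, with 8.37% to 8.97% of reads, stayed out of library sizes and tests. Counts were summed per gene and rounded, since the design had assumed gene counts. Genes were filtered with filterByExpr (minimum count 10, total 15), scaled by TMM and tested in edgeR 4.0.16 (R 4.3.3) with the robust two-sided quasi-likelihood test and Benjamini-Hochberg adjustment over all genes, in 6 libraries per experiment and all 12 for the difference. The fits were tested on simulated data. SE is the log2 fold change over the square root of F; log2 CPM used a prior count of 2. An exact permutation test with 3 against 3 libraries cannot give a two-sided p below 0.1. Alternatives were DESeq2 1.42.0, other scalings, no filter, an isoform length offset, unmatched transcripts given the gene of their neighbours (17252, a rule correct for 99.9% of matched ones), 1 fit of 12 libraries, removal of a GC and length trend (limma 3.58.1 loess, span 0.3), a replicate block and leaving out each library; the levels without RRM2 were added after seeing the data. The genes and lists were chosen with earlier results of these data known. Named are all members, CDKN1A, FOXM1, MYBL2 and POLR3A, and from each other list and comparison at most the 3 called genes with the largest change and no overlap. The list members ASF1B and KIF15 were not analysed here, and 1 gene that the rule names is not reported here.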

Additional observations from a re-analysis of the deposited data

How the results depend on the processing

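Among values for single genes under the alternatives, 3944 kept their direction and side of the threshold, 78 changed sign without being called in either fit, 224 lost a call, 95 gained one and 5 that were called in at least 1 of the fits turned. The 5 turned with the GC and length trend removed: CDT1 (−0.14) and TPX2 (0.0048) after the siRNA, and CDC6 (0.094), CENPE (0.12) and MYBL2 (−0.17) in the difference. After the siRNA the G1/S median was −0.0057 under upper quartile scaling, −0.012 under total counts and −0.0084 without that trend, and the G2/M median 0.064, 0.054 and 0.034 (main 0.0048); without 1 library the latter ranged from −0.017 to 0.021. With ML60218 the G1/S median was −0.051, −0.020 and −0.066, and −0.11 to −0.083 without 1 library. The G2/M median was −0.19 and −0.16 under both scalings, and −0.27 to −0.21 without 1 library. G1/S genes called higher with ML60218 numbered 3 under upper quartile scaling, 4 under total counts, 3 with the isoform length offset, 2 in 1 fit of all 12 libraries and 3 with the trend removed, and 0 to 2 without 1 library. Those called lower numbered 7 with total counts and 7 to 9 without 1 library. G2/M genes called higher numbered 2 under both scalings and 0 to 1 without 1 library. In the difference with the trend removed, the medians were 0.058 (G1/S) and 0.30 (G2/M), with 1 G2/M gene negative. Genes lower in both experiments numbered 6 with the trend removed and 5 under both scalings. The cause of these shifts was not tested.

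Same-numbered libraries did not deviate together over all genes (correlations −0.074 to 0.066). The numbers thus gave no sign of pairing, which correlations among so few libraries cannot exclude. With a replicate block, 8493, 5393 and 7658 genes were called in the siRNA, ML60218 and difference fits. By DESeq2 they were 7392, 5300 and 7463.

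The precision rests on 3 libraries per group, and a missed call does not show that a gene did not differ.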
